A study of Mus musculus with 24 samples.

Results

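The striated muscle structure and contraction genes are 43 genes for the sarcomere, its calcium supply, its nerve contact and its energy supply, followed here in cultured mouse brown and white adipocytes. Every probe set whose annotation gives 1 symbol, and that symbol a member, was taken, dim ones included. The array carried 42 of the 43 genes, all but Ttn, in 56 of its 12422 probe sets other than controls.

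In striated muscle, thick filaments of myosin heavy and light chains pull on thin filaments of actin, tropomyosin and the troponin complex. Calcium released from the sarcoplasmic reticulum binds troponin C, troponin I and T pass the change on to tropomyosin, and calcium pumps then return the ion to its store. Brown adipocytes burn fat for heat and white adipocytes store it, and part of the brown lineage shares an embryonic origin with skeletal muscle.

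RNA from primary cells was hybridised to 24 arrays in 4 groups. The groups were brown cells, labelled BAT, at day 4 (5 arrays) and day 7 (5 arrays) after isolation, and white cells, labelled WAT, at day 4 (8 arrays) and day 7 (6 arrays). All day 4 cells are labelled non differentiated and all day 7 cells differentiated, so days in culture and differentiation cannot be told apart. No genotype, strain, sex, age or depot is given in the sources used here, and no label ties the arrays of a group to separate animals or cultures. The p-values therefore rest on array to array spread alone, and that spread may be technical. These are whole cultures, in which fewer cells of a type and less RNA per cell cannot be told apart.

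The labels were checked against fat markers. Zic1, a transcription factor gene of the brown lineage, was at the floor on each of the white arrays and above it on all brown ones. Tcf21, a white precursor gene, was lower in brown cells, by a log2 difference of -4.83 at day 4 and -5.09 at day 7. Zic1 and Tcf21 are single genes of longer marker lists. Of 8 brown fat probe sets, limma's adjusted p was under 0.05 for 4 at day 4 and 5 at day 7, all higher in brown cells. Of 6 white fat probe sets it was so for 4 on each day, all lower in brown cells. Of those 6, 2 had a difference above 0 on each day. Adipoq was above the floor on all 24 arrays. Median signal ran from 42 to 59.1 over the arrays. The ratio of the 3' to the 5' Gapdh control, a measure of RNA integrity, was 1.36 ± 0.20 (SD, n = 6) on white day 7 arrays. It was 0.884 ± 0.082 (n = 5) on brown day 4, 0.889 ± 0.038 (n = 5) on brown day 7 and 0.943 ± 0.096 (n = 8) on white day 4 arrays.

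Values are array signals in arbitrary units, brought to a common mean. Any signal below 8.22, the 20th percentile of all values, was set to that floor before log2, since values that low have no order. A difference is called where limma's adjusted p, taken over all 12039 probe sets tested, is under 0.05. Of the 56 members, 54 were tested: Myl3 and 1 probe set of Tnnc2 (93259_at) were at the floor on all 24 arrays. Another 26 were dim, meaning above their own array's 40th percentile on fewer than 5 arrays, which makes 28 dim probe sets in all. For 17 genes every probe set was dim.

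At day 4, 15 member probe sets of 13 genes were higher in brown than in white cells and 2 were lower. Of all probe sets tested, 6.83% were called higher and 8.06% lower. At day 7, 11 members of 10 genes were higher and 4 lower, where 8.33% and 8.87% of all probe sets were called. Of the day 4 calls, 13 reached 2-fold higher, which 1.3% of all probe sets did; at day 7, 8 did so, against 2.4%. The median difference of the tested members was 0.11 at day 4 and 0.07 at day 7 on the log2 scale, with -0.02 and -0.03 over all probe sets. Of the 54 tested members 26 were dim, and values at the floor pull a difference toward 0.

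The light chains and troponins held 11 of the 15 higher calls at day 4 and 7 of the 11 at day 7. The rest were Myh1, Myh3 and Mybph on each day, with Chrna1 at day 4 and Mb at day 7. Of 7 light chain probe sets 5 were higher at day 4 and 4 at day 7. Of 10 troponin probe sets 6 were higher at day 4 and 3 at day 7. Myosin heavy chains had 2 of 10 higher on each day and the sarcomere scaffold 1 of 7. The calcium genes had 0 of 8 called higher by limma on each day (0 at day 4 and 2 at day 7 at an unadjusted p under 0.05) and 1 lower. The energy genes had 0 of 9 called at day 4, and 0 at an unadjusted p under 0.05.

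**Figure D1:**
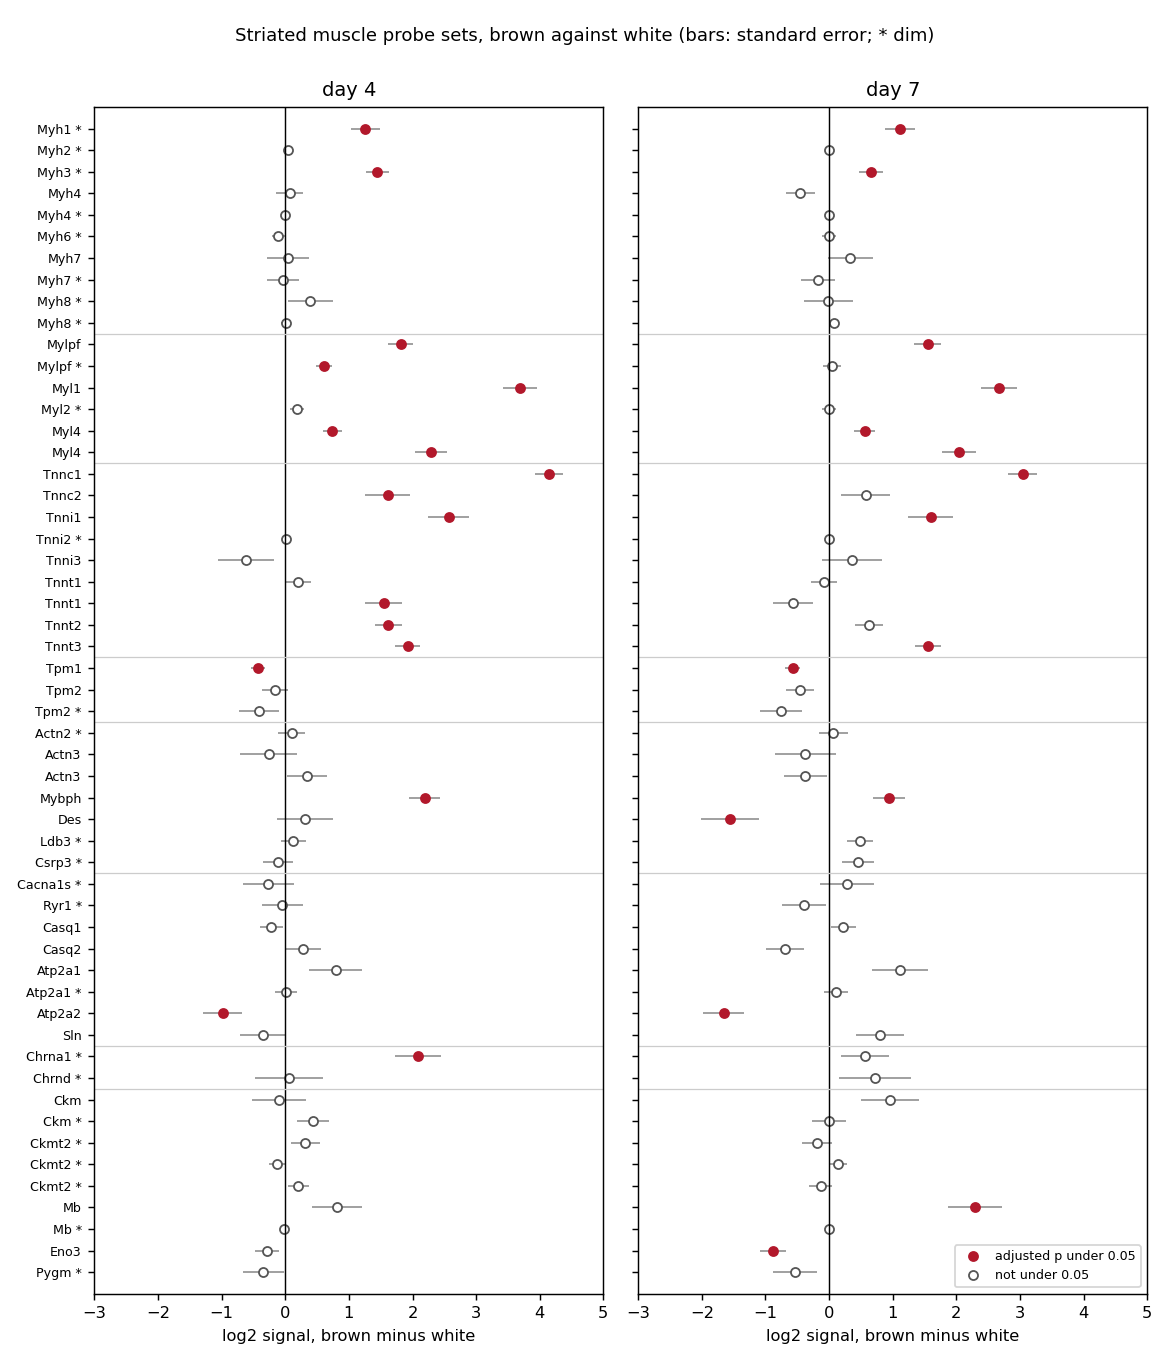
Difference between brown and white cells for the 54 tested member probe sets, in log2 signal, at day 4 and day 7, with lines parting the roles from myosin heavy chains at the top to energy genes at the bottom. Bars are standard errors from limma, filled points have an adjusted p under 0.05, and an asterisk marks a dim probe set. The filled points at day 4 gather in the light chains (5 of 6 tested) and troponins (6 of 9 tested).

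Higher in brown cells on both days were 10 probe sets of 9 genes: Myh1, Myh3, Mylpf, Myl1, Myl4 with both its probe sets, Tnnc1, Tnni1, Tnnt3 and Mybph. They are 10 of the 15 called higher at day 4 and 10 of the 11 at day 7. Of all probe sets, 505 (4.19%) were called higher on both days, out of 822 called higher at day 4 and 1003 at day 7. The stretches of genome just before the start of these genes are shown for the 5 with the largest day 4 difference, since E-boxes there are the letters that the myogenic regulators MyoD and myogenin are known to bind. Each is the 250 bases upstream of the start in RefSeq, build GRCm38.p6, read 5′ to 3′ on the gene's strand, with E-boxes (CANNTG) in capitals.
Tnnc1: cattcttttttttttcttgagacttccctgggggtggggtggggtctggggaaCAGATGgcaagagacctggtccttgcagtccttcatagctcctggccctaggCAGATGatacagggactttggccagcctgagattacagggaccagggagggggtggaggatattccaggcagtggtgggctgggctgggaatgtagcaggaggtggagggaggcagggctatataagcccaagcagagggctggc
Myl1: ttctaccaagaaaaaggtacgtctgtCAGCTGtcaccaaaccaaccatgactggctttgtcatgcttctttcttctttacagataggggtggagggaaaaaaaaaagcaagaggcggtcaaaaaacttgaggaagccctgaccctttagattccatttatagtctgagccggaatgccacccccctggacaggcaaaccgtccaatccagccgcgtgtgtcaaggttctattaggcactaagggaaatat
Tnni1: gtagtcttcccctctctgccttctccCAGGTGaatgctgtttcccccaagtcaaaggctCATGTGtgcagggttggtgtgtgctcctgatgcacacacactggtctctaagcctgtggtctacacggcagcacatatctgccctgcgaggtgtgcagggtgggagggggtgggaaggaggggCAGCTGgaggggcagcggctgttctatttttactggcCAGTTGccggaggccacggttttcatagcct
Myl4: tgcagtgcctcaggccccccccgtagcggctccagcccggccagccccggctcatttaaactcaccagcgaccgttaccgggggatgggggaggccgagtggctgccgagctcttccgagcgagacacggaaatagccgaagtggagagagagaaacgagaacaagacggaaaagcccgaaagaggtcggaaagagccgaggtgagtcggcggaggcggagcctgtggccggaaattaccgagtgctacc
Mybph: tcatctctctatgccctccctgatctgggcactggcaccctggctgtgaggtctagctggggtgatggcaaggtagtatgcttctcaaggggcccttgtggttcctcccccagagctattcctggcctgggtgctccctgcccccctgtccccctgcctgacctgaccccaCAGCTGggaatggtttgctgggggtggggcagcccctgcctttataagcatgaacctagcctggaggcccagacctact
The windows are chr14:31208062-31208311 on the plus strand for Tnnc1, chr1:66945057-66945306 on the minus strand for Myl1, chr1:135799171-135799420 on the plus strand for the first of 2 Tnni1 starts, chr11:104550413-104550662 on the plus strand for Myl4 and chr1:134193198-134193447 on the plus strand for Mybph. Tnnc1 held 2 E-boxes, both CAGATG, and Tnni1 held 4. Myl1 and Mybph each held 1, CAGCTG, which in Mybph began 79 bases before the start. Myl4 held none in this window.

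Windows were found for 8 of the 9 genes, 9 windows in all. The 2 Tnni1 windows share 160 bases, so a motif there can be counted in both. An E-box stood in 7 of the 9 (6 of 8 genes), and in 66.2% of all 32851 windows of this length in the table. Its form CAGCTG, which is counted among the E-boxes too, stood in 5 of the 9 (4 of 8 genes) and in 13.0% of all windows. The MCAT box, CATTCC on either strand, stood in 4 and in 12.6% of all, and TATAAA on either strand in 4 and in 12.4%. The MEF2 site, which can overlap TATAAA, stood in 1 (Myh1) and in 2.92% of all windows. No CArG box was found in the 9, and 1.47% of all windows held one. Over all members, 38 of 44 windows held an E-box and 19 held CAGCTG. These are matches of letters and say nothing of binding.

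**Figure D2:**
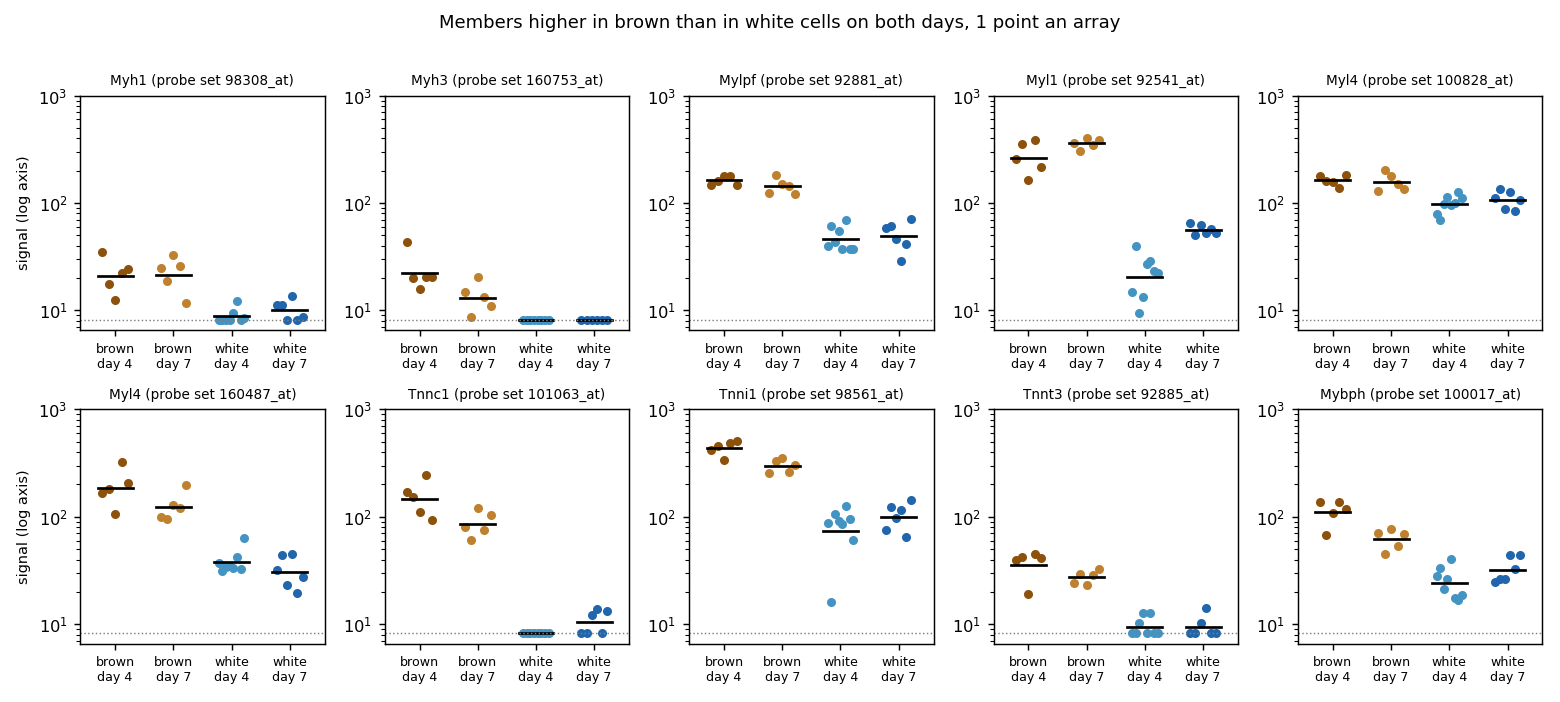
Signal of the 10 probe sets called higher in brown cells on both days, 1 point an array, on a log axis, for brown and white cells at day 4 and day 7. Black bars are geometric means and the dotted line is the floor of 8.22. For Tnnc1 all 8 white day 4 arrays sit at the floor and the lowest brown array is at 61.0.

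Brown values below are in the order of arrays 05, 06, 09, 10 and 19 for day 4 and 07, 08, 11, 12 and 22 for day 7, the numbers in the labels. White values are the lowest, the median and the highest. The order has no known meaning.

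Among the myosin heavy chains, the motor proteins of the thick filament, Myh3 is the embryonic form. Its signal (160753_at) was 43.4, 19.9, 15.8, 20.3 and 20.3 in brown cells at day 4 and 14.7, 8.73, 20.3, 13.2 and 10.9 at day 7. All 14 white arrays were at the floor. Brown cells were at least 2.72-fold higher at day 4 (log2 difference 1.45 ± 0.18 SE, adjusted p = 5.35e-06) and at least 1.58-fold higher at day 7 (0.66 ± 0.19, adjusted p = 0.0179). The day 7 call ended without brown day 7 array 11, at 0.50 (adjusted p = 0.0682).

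Myh1, the fast IIx form, had a signal (98308_at) of 34.9, 17.6, 12.4, 22.5 and 24.3 in brown cells at day 4 and 25.0, 18.8, 33.1, 25.9 and 11.6 at day 7. In white cells 5 of 8 arrays at day 4 and 2 of 6 at day 7 were at the floor, with highest values of 12.1 and 13.5. The groups did not overlap at day 4, which 2.36% of all probe sets showed in this direction, and overlapped at day 7. The differences were 1.26 ± 0.23 (adjusted p = 0.000448) and 1.11 ± 0.24 (adjusted p = 0.00217). Both genes were dim, and with the floor raised to the 40th percentile, a signal of 29.0, neither was called on either day (adjusted p from 0.243 to 1). The other heavy chains, Myh2, Myh4, Myh6, Myh7 and Myh8, were called in no comparison. Myh2 was above the floor on 1 of 24 arrays. In RefSeq gene order Myh3, Myh2, Myh1, Myh4 and Myh8 lie next to each other on chromosome 11 with no protein-coding gene between them, so the called and uncalled members are neighbours.

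The light chains sit on the neck of the myosin head. Myl1, the fast alkali light chain, had a signal (92541_at) of 259, 352, 163, 388 and 217 in brown cells at day 4 and 365, 305, 402, 348 and 390 at day 7. White cells ran from 9.38 through 22.7 to 39.6 at day 4 and from 50.6 through 54.9 to 65.6 at day 7. The lowest brown array was above the highest white one on each day, by 12.9-fold between the geometric means at day 4 (3.69 ± 0.26, adjusted p = 6.62e-10) and 6.37-fold at day 7 (2.67 ± 0.28, adjusted p = 4.52e-07). At day 7 such a gap in this direction was seen in 6.16% of all probe sets.

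Mylpf, the fast regulatory light chain, had a signal (92881_at) of 148, 160, 179, 179 and 147 in brown cells at day 4 and 125, 183, 149, 145 and 121 at day 7. White cells ran from 37.1 through 41.3 to 69.2 and from 28.6 through 52.0 to 70.4. The groups did not overlap on either day, with differences of 1.81 ± 0.20 (adjusted p = 7.78e-07) and 1.55 ± 0.21 (adjusted p = 1.52e-05). Its dim second probe set (162101_f_at) was higher in brown cells at day 4 (0.61 ± 0.13, adjusted p = 0.00241) and at day 7 had 4 of 5 brown arrays and all white ones at the floor (0.04, adjusted p = 0.905). The probe sets thus disagreed at day 7.

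Myl4, the atrial and embryonic light chain, has 2 probe sets. By 160487_at its signal was 167, 181, 106, 327 and 205 in brown cells at day 4 and 100, 95.6, 130, 122 and 198 at day 7, and in white cells it ran from 31.5 through 34.3 to 63.8 and from 19.5 through 29.5 to 45.1. The groups did not overlap, and the differences were 2.29 ± 0.25 (adjusted p = 9.72e-07) and 2.04 ± 0.27 (adjusted p = 1.2e-05). By 100828_at the differences were smaller, 0.74 ± 0.15 (adjusted p = 0.00156) and 0.56 ± 0.16 (adjusted p = 0.0183), and the day 7 arrays overlapped. Its signal there was 179, 161, 158, 138 and 183 in brown cells at day 4 and 128, 203, 179, 151 and 136 at day 7, and white cells ran from 68.7 through 99.2 to 126 and from 83.9 through 109 to 134. The day 7 call ended without brown day 7 array 08 (0.46, adjusted p = 0.0659) or 11 (0.51, adjusted p = 0.0505). Myl2, the slow and ventricular regulatory light chain, was at the floor on 23 of 24 arrays.

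Troponin C binds calcium. The slow and cardiac gene, Tnnc1, showed the largest difference of all members on each day. Its signal (101063_at) was 170, 152, 112, 244 and 93.2 in brown cells at day 4 and 79.5, 61.0, 120, 75.0 and 105 at day 7. White cells were at the floor on all 8 arrays at day 4 and on 3 of 6 at day 7, where the highest was 13.9. Brown cells were at least 17.7-fold higher at day 4 (4.15 ± 0.22, adjusted p = 4.47e-12) and 8.24-fold higher at day 7 (3.04 ± 0.23, adjusted p = 2.95e-09), with no overlap. The fast gene Tnnc2, by a probe set for related sequences (162325_f_at), was higher in brown cells at day 4 (1.61 ± 0.36, adjusted p = 0.00331) with overlapping arrays. Its brown signal there was 52.4, 50.0, 38.8, 73.3 and 39.6, and white cells ran from under the floor through 13.7 to 47.7. At day 7 brown cells stood at 70.4, 41, 55.2, 54.9 and 41.6 and white cells ran from 23.9 through 35.7 to 53.8, which was not called (0.57 ± 0.38, adjusted p = 0.351).

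Troponin I holds the filament off at low calcium. The slow gene Tnni1 had a signal (98561_at) of 417, 458, 335, 482 and 504 in brown cells at day 4 and 256, 330, 356, 263 and 301 at day 7. White cells ran from 16.2 through 89.0 to 126 and from 64.9 through 106 to 142, below every brown array on each day. The differences were 5.93-fold (2.57 ± 0.33, adjusted p = 7.79e-06) and 3.02-fold (1.59 ± 0.35, adjusted p = 0.0024). The fast gene Tnni2 was above the floor on 1 of 24 arrays, and the cardiac gene Tnni3 was not called on either day (-0.62 at day 4 and 0.36 at day 7).

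Troponin T ties the complex to tropomyosin, and it has slow (Tnnt1), cardiac (Tnnt2) and fast (Tnnt3) genes. Tnnt3 had a signal (92885_at) of 39.3, 41.9, 19.1, 45 and 41.4 in brown cells at day 4 and 24.4, 29.1, 23.1, 28.8 and 32.5 at day 7. White cells were at the floor on 5 of 8 and 4 of 6 arrays, with highest values of 12.7 and 14.0, so the groups did not overlap. The differences were 1.93 ± 0.20 (adjusted p = 3.02e-07) and 1.55 ± 0.21 (adjusted p = 1.43e-05). With the floor at 29.0 the day 7 call ended (0.03, adjusted p = 0.805).

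Tnnt2 (100593_at) stood at 72.0, 44.1, 62.9, 71.4 and 49.3 in brown cells at day 4, above the white range from 15.9 through 17.8 to 26.9. The difference was 1.62 ± 0.21 (adjusted p = 1.11e-05). At day 7 brown arrays at 44.8, 33.6, 53.7, 39.3 and 48.3 overlapped the white range from 19.1 through 29.3 to 40.9, and the difference of 0.63 ± 0.23 just missed the threshold (adjusted p = 0.0591). It was called at day 7 with the higher floor, with quantile normalization, with array weights or with 1 probe set a gene (adjusted p from 0.0137 to 0.0490). With the Gapdh ratio added to the fit the sign turned (-0.12, adjusted p = 0.938). In gene order Tnni1 and Tnnt2 lie on chromosome 1 with 1 protein-coding gene, Lad1, between them.

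Tnnt1 gave 2 answers. By 161361_s_at its signal was 58.6, 66.0, 60.0, 66.9 and 21.9 in brown cells at day 4, where white cells ran from 10.6 through 16.8 to 29.9, and brown was higher by 1.55 ± 0.29 (adjusted p = 0.000727). Array 19 alone lay within the white range. By 101383_at brown arrays from 50.1 to 76.6 and white arrays from 44.8 to 82.1 overlapped at day 4 and nothing was called (0.20 ± 0.20, adjusted p = 0.591).

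Mybph encodes a myosin binding protein of the thick filament. Its signal (100017_at) was 136, 67.7, 109, 137 and 117 in brown cells at day 4 and 70.3, 44.7, 76.4, 53.9 and 69.5 at day 7. White cells ran from 16.9 through 23.7 to 40.8 and from 24.8 through 29.5 to 44.1, under every brown array. The differences were 2.19 ± 0.24 (adjusted p = 9.57e-07) and 0.94 ± 0.26 (adjusted p = 0.0125).

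Chrna1, the alpha subunit of the acetylcholine receptor at the nerve and muscle junction, was dim. Its signal (100021_at) in brown cells at day 4 was 41.3, under the floor, 77.3, 32.7 and 60.2, and all white arrays were at the floor. Brown cells were at least 4.24-fold higher at day 4 (2.08 ± 0.36, adjusted p = 0.000308), and at day 7 the difference was not called (0.57 ± 0.38, adjusted p = 0.356). The log2 SD was 1.26 in brown cells at day 4, while the white arrays at the floor had no spread. The shared spread takes in both, so the SE and p-value can be too small. The delta subunit gene Chrnd was not called on either day.

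The brown arrays differed among themselves over the 10 probe sets higher on both days. At day 4 array 10 was highest in 6 of them and array 09 lowest in 6. At day 7 array 11 was highest in 6 and array 08 lowest in 5.

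Fewer members were lower in brown cells. Tpm1, a tropomyosin that other cells make too, had a signal (160532_at) of 1423, 1339, 1821, 1760 and 1316 in brown cells at day 4 and 1266, 1339, 1562, 1715 and 1573 at day 7. White cells ran from 1667 through 2004 to 2453 and from 1863 through 2243 to 2500. The arrays overlapped at day 4 and not at day 7, and the differences were -0.43 ± 0.11 (adjusted p = 0.0117) and -0.57 ± 0.12 (adjusted p = 0.00163). At day 7, 6.93% of all probe sets were lower in brown cells with no overlap. Tpm2 was not called.

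Atp2a2, the calcium pump of slow and heart muscle and of many other tissues, had a signal (99570_s_at) of 68.2, 17.8, 43.3, 56.7 and 27.5 in brown cells at day 4 and 31.9, 23.0, 37.2, 47.5 and 33.9 at day 7. White cells ran from 41 through 84.6 to 116 and from 82.5 through 108 to 140. The difference was -0.98 ± 0.31 at day 4 (adjusted p = 0.0331) and -1.66 ± 0.33 at day 7 (adjusted p = 0.000972), with no overlap at day 7. The day 4 call ended without brown array 06 or 19 or white array 33, 34, 37 or 41 (-0.93 to -0.70, adjusted p from 0.0543 to 0.140), and with only the 2 day 4 groups in the fit (adjusted p = 0.108). The pump of fast muscle, Atp2a1, was not called (98126_s_at, 0.80 at day 4 and 1.11 ± 0.44 at day 7, adjusted p = 0.0890).

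Des, which encodes the muscle intermediate filament desmin, and Eno3, the muscle enolase, were called lower in brown cells at day 7 and not at day 4 (0.31, adjusted p = 0.729, and -0.28, adjusted p = 0.382). The difference between the day changes in brown and in white cells was not called for either (adjusted p = 0.389 and 0.701). At day 4 Des (100997_at) stood at 63.2, 51.6, 39.5, 46.5 and 66.7 in brown cells, and white cells ran from 26.1 through 45.5 to 60.2. At day 7 it stood at 40.6, 54.8, 9.45, 22.5 and 9.80 in brown cells, inside and below a white range from 22 through 81.2 to 132, a difference of -1.56 ± 0.46 (adjusted p = 0.0210). That call ended without brown array 11 (-1.26, adjusted p = 0.0733) or 22 (-1.28, adjusted p = 0.0703) or white array 39 (-1.35, adjusted p = 0.0558). Eno3 (96344_at) ran from 105 to 131 in brown and from 153 to 335 in white cells (-0.87 ± 0.20, adjusted p = 0.00406).

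Myoglobin, Mb, the oxygen store of red muscle and heart, was the only energy gene called higher. Its signal (100614_at) was 17.3, 36.9, under the floor, 33.2 and 9.31 in brown cells at day 4 and 56.8, 144, 30.3, 65.4 and 73.1 at day 7. White cells had 5 of 8 arrays at the floor at day 4 and 2 of 6 at day 7, with highest values of 17.3 and 23.6. The groups overlapped at day 4 (0.81 ± 0.39, adjusted p = 0.192) and not at day 7, when brown was 4.9-fold higher (2.29 ± 0.42, adjusted p = 0.000466). Its other probe set (100615_at) was at the floor on 23 of 24 arrays.

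The day 7 comparison also holds the difference in the Gapdh ratio. With that ratio as a covariate 3 of the 15 member calls at day 7 were left, Tnnc1 (2.18, adjusted p = 0.000772), Myl1 (2.05, adjusted p = 0.0211) and Mylpf (1.62, adjusted p = 0.0219). The other 12 kept their direction and had larger standard errors. Des was at -1.65 ± 0.82, where the SE had been 0.46, Atp2a2 at -1.62 ± 0.58, Tpm1 at -0.69 ± 0.21 and Eno3 at -1.21. Of the higher ones, Mb was at 1.64 ± 0.72, Myl4 at 1.33 ± 0.44 (160487_at) and 0.47 ± 0.28 (100828_at), Tnni1 at 1.33 ± 0.61, Tnnt3 at 1.23 ± 0.36, Myh1 at 0.96 ± 0.42, Mybph at 0.72 ± 0.45 and Myh3 at 0.60 ± 0.34. Over all probe sets 119 were then higher and 129 lower, in place of 1003 and 1068. At day 4, where the ratios lay close together, all 17 member calls were left.

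Between the days, called changes were few. In brown cells 1 member rose from day 4 to day 7 and 4 fell, where 3.53% of all probe sets rose and 3.76% fell; the median change was -0.12, with 0.00 over all. In white cells 2 rose and 1 fell, where 5.13% rose and 6.54% fell; the median was 0.00, with 0.02 over all. Of the tested members, 1.85% rose and 7.41% fell in brown cells, and 3.70% rose and 1.85% fell in white cells. Without brown day 7 array 08 the brown count was 3. The white count was 1 without white day 7 array 40 or without white day 4 arrays 45 and 51 together, and 5 without white day 7 array 43. The comparisons between days and those between cell types share arrays, so each member's values are given side by side without an overlap count.

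In brown cells Mb rose by 1.90 ± 0.44 (adjusted p = 0.00808), with overlapping arrays. Tnnt1, by 161361_s_at, went from the day 4 values above to 15.6, 15.3, 14.5, 11.9 and 18.0 at day 7, when white cells ran from 12.5 through 24.5 to 33.5. It fell by 1.77 on the log2 scale (SE 0.32, adjusted p = 0.00164) and the days did not overlap, which 3.76% of all probe sets showed in this direction. By its other probe set, 101383_at, Tnnt1 did not change detectably in brown cells (-0.28 ± 0.22, adjusted p = 0.576). Chrna1 went to 18.9, under the floor, 8.22, 25.6 and under the floor and fell by 1.52 (SE 0.40, adjusted p = 0.0193). Without brown day 4 array 09 or 19, or day 7 array 08 or 11, its adjusted p was 0.0524 to 0.0737.

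Myh3 fell by 0.78 (SE 0.20, adjusted p = 0.0161), a call that ended without brown day 7 array 08 (-0.64, adjusted p = 0.0665). The second probe set of Mylpf fell by 0.57 (SE 0.15, adjusted p = 0.0163), which ended without brown day 4 array 10 (adjusted p = 0.0565) or 19 (adjusted p = 0.0553), while 92881_at did not change detectably (-0.18 ± 0.22, adjusted p = 0.774). Tnnc1 (-0.77 ± 0.24, adjusted p = 0.0567) and Mybph (-0.83 ± 0.27, adjusted p = 0.0619) just missed the threshold. Both passed with the higher floor, quantile normalization, array weights or 1 probe set a gene (adjusted p from 0.00485 to 0.0495). With a floor of 1 signal unit Tnnc1 did not (adjusted p = 0.288). The labels number the arrays in runs of neighbouring numbers that hold both days, with no word on what the numbers mean. In the 3 brown runs Mb differed by 1.84, 1.43 and 2.97 between the days, and Myh3, Chrna1, Mybph and Tnnt1 (161361_s_at) were lower at day 7 in all 3. Tnnc1 differed by -1.20, -0.80 and 0.18, so it was not lower in the last run. With only the 2 brown groups in the fit, the Myh3, Mylpf, Chrna1 and Mb calls ended (adjusted p from 0.0536 to 0.169). They also ended with a floor of 1 signal unit (adjusted p from 0.0515 to 0.471). The changes themselves were the same in the fit of the brown groups, and with the low floor they were 2.07 for Mb, -2.07 for Chrna1, -1.68 for Mylpf and -0.78 for Myh3.

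In white cells Myl1 rose by 1.47 ± 0.25 (adjusted p = 0.000692), 2.77-fold, with no overlap between the days; 1.59% of all probe sets showed such a rise. Sln, which encodes sarcolipin, a small inhibitor of the calcium pumps, ran from 26.3 through 29.7 to 44.2 at day 4 and from 8.80 through 13.7 to 23.2 at day 7 (95048_at). It fell by 1.15 (SE 0.34, adjusted p = 0.0270) with no overlap, which 1.79% of all probe sets showed. In brown cells it stood at 30.1, 35.9, 23.2, under the floor and 47 at day 4 and 31.8, 9.73, 31.1, 24 and 42.4 at day 7. That call ended without white day 7 array 35, 40 or 44 (adjusted p from 0.0533 to 0.0722). Tnnc2, by 162325_f_at, rose by 1.09 ± 0.34 (adjusted p = 0.0385), a call lost without any of white day 4 arrays 33, 34, 38, 45 and 51 and day 7 arrays 36, 39, 40 and 43 (0.95 to 1.09, adjusted p from 0.0519 to 0.0920). Both calls also ended once the Gapdh ratio was a covariate (Sln at -1.78, adjusted p = 0.175, and Tnnc2 at 0.79, adjusted p = 0.668). With the floor at 29.0 the changes were -0.16 and 0.21 (adjusted p = 0.369 and 0.429), and with runs of array numbers as a block -1.15 and 0.80 (adjusted p = 0.0512 and 0.0971).

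The difference between the day changes in brown and in white cells was called for 1 member, Tnnt1 by 161361_s_at (-2.12 ± 0.43, adjusted p = 0.0463), and for 0.108% of all probe sets. It ended when any of 18 arrays was left out (adjusted p from 0.0562 to 0.135), and held without brown array 19 or 22 or white array 35, 43, 44 or 51. For Myl1, which rose in white cells, the difference of the changes was -1.02 ± 0.38 (adjusted p = 0.506). Over the tested members the median difference of the changes was -0.22, with -0.01 over all probe sets.

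**Figure D3:**
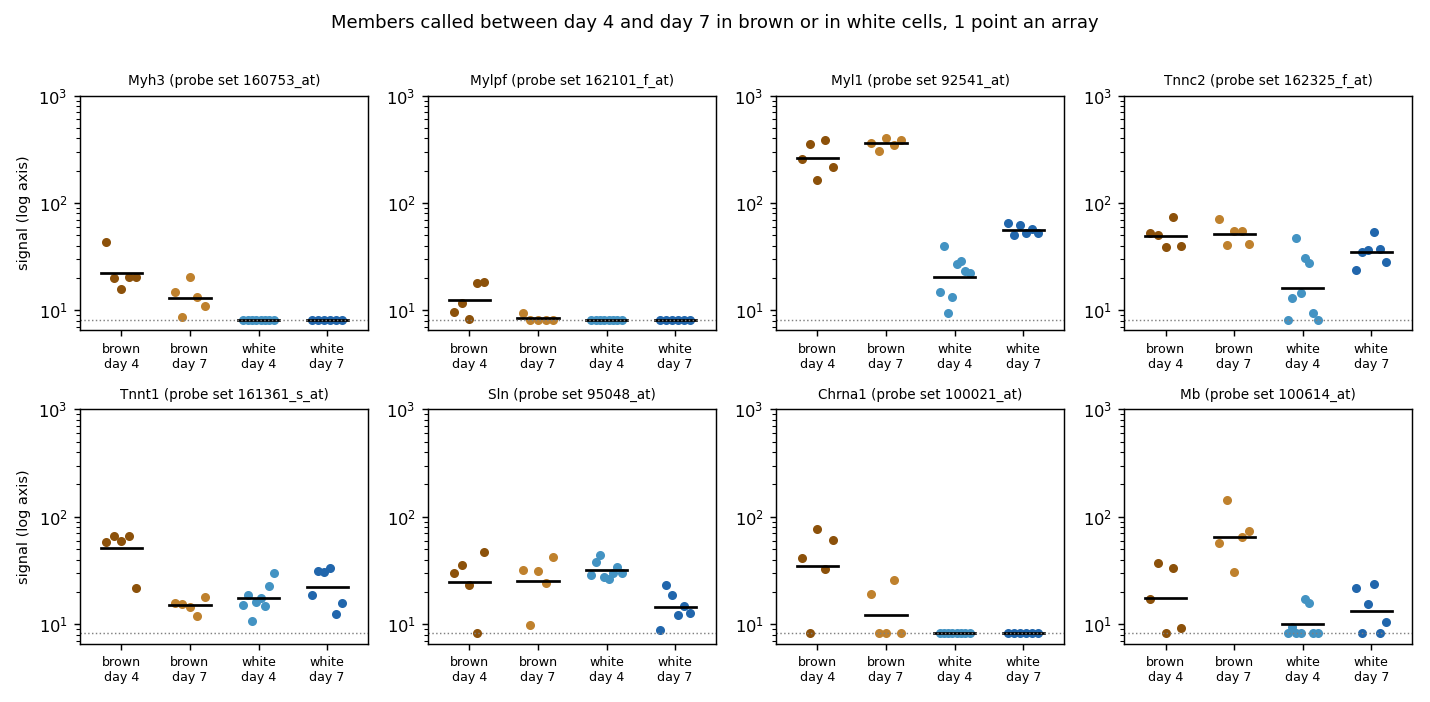
Signal of the 8 member probe sets called between day 4 and day 7 in brown or in white cells, 1 point an array, on a log axis, in the 4 groups. Black bars are geometric means and the dotted line is the floor of 8.22. Tnnt1 falls in brown cells from 50.9 to 14.9 and Myl1 rises in white cells from 20.4 to 56.5 (geometric means).

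Called in no comparison were 35 member probe sets of 26 genes, of which 11 were not dim. Those 11 include Casq1 and Casq2, which store calcium in the reticulum, the fast Z-disc protein gene Actn3 with both its probe sets, and the muscle creatine kinase gene Ckm. At day 7 the Casq2 difference was -0.69 ± 0.30 (adjusted p = 0.116). It was called lower in brown cells with the higher floor, array weights or only the day 7 groups (adjusted p from 0.0158 to 0.0368). Its rise in white cells (0.73 ± 0.26, adjusted p = 0.0742) was called with a filter on dim probe sets or array weights (adjusted p = 0.0471 and 0.0461). Actn3, by 100879_at, stood at 56.5 to 97.6 in brown cells at day 4 and 12.3 to 58.7 at day 7. Its day changes of -1.38 ± 0.50 in brown (adjusted p = 0.106) and -1.27 ± 0.43 in white cells (adjusted p = 0.0543) did not pass. Both passed with runs of array numbers as a block (-1.38, adjusted p = 0.0267, and -1.24, adjusted p = 0.0321) and with the floor at 29.0 (-1.12, adjusted p = 0.0137, and -0.81, adjusted p = 0.0279). By its other probe set, 162164_f_at, Actn3 was at -0.35 ± 0.36 in brown (adjusted p = 0.709) and 0.37 ± 0.30 in white cells (adjusted p = 0.495). The probe sets thus differed in sign in white cells. The calcium release genes Ryr1 and Cacna1s and the Z-disc genes Actn2, Ldb3 and Csrp3 were dim, with highest signals from 19.2 (Ldb3) to 36.3 (Cacna1s).

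Other muscle genes, in 4 lists of filament, membrane, energy and regulator genes, gave 110 probe sets of 74 genes. At day 4, 18 were higher in brown cells and 8 lower, and at day 7 12 and 5. Of the 105 tested, 17.1% were higher and 7.62% lower at day 4, where 6.83% and 8.06% of all probe sets were. At day 7, 11.4% were higher and 4.76% lower, where 8.33% and 8.87% of all were. The medians of the 4 lists together were 0.02 and 0.00. The largest day 4 differences were in the sarcomeric actins, Actc1 (101028_i_at, 4.52 ± 0.27, adjusted p = 3.73e-11) and Acta1 (3.55 ± 0.30, adjusted p = 1.52e-08). They were followed by the homeobox gene Meox2 (3.09 ± 0.33, adjusted p = 6.53e-07), the myogenic regulator gene Myog (2.34 ± 0.33, adjusted p = 3.36e-05), the cytochrome oxidase subunit gene Cox7a1 (2.06 ± 0.53, adjusted p = 0.00886) and the muscle caveolin gene Cav3 (99050_at, 1.73 ± 0.36, adjusted p = 0.00189).

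At day 7 the largest were Meox2 (4.03), Cox7a1 (3.89), Actc1 (2.86), Cox8b (2.01), the fatty acid binding protein gene Fabp3 (1.64) and Csrp2 (1.40), with adjusted p from 3.05e-08 to 0.0173. Cox8b was also on the list of brown fat markers, so the 4 lists do not hold genes of muscle alone. Between the days in brown cells 9 rose (8.57% of those tested) and 6 fell (5.71%), where 3.53% and 3.76% of all probe sets did. Cox8b (2.68), Cox7a1 (2.53) and Fabp3 (1.85) rose, and Myog fell by 1.72 and Actc1 by 1.55 (adjusted p from 0.00105 to 0.0207). In white cells 9 rose (8.57%) and 3 fell (2.86%), where 5.13% and 6.54% of all probe sets did. The rises were led by Cox8b (2.81 by 161205_at), the integrin gene Itga7 (1.88), Ankrd1 (1.13), Acta1 (1.10) and the glycogenin gene Gyg (1.04), with adjusted p from 0.000127 to 0.0481. The difference of the day changes was called for Acta1 alone of these (-2.64 ± 0.44, adjusted p = 0.00872).

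The non-muscle and smooth muscle forms of the same proteins, 23 probe sets of 18 genes, stood the other way. At day 4 limma called 0 higher in brown cells (1 at an unadjusted p under 0.05) and 6 lower, and at day 7 1 higher and 12 lower, with medians of -0.43 and -0.54. The lower calls were 26.1% and 52.2% of those tested, where 8.06% and 8.87% of all probe sets were lower. The calponin gene Cnn1 was at -3.04 and -2.88 and the smooth muscle myosin gene Myh11 at -1.90 and -2.57.

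**Figure D4:**
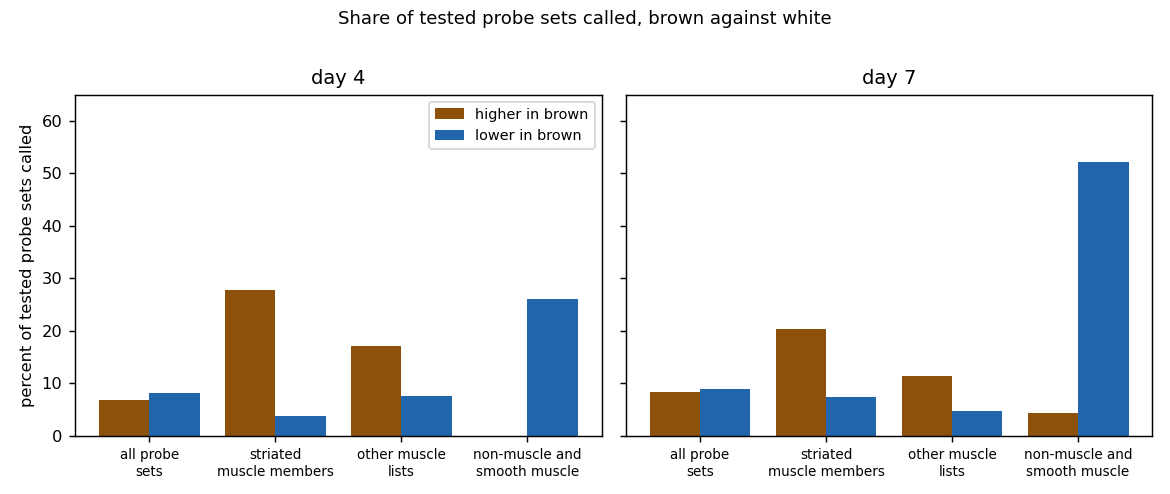
Percent of tested probe sets called higher (brown bars) or lower (blue bars) in brown than in white cells at day 4 and day 7, for all probe sets, the members, the 4 lists of other muscle genes and the non-muscle and smooth muscle forms. At day 4, 27.8% of the tested members were higher and 3.70% lower, where 6.83% and 8.06% of all probe sets were.

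Markers of other cells moved with these results in part. Over all probe sets 6.83% were called higher in brown cells and 8.06% lower at day 4, and 8.33% and 8.87% at day 7. Of 12 tested probe sets of the myoblast and satellite cell list, 2 were higher in brown cells at day 4 (Myog, and Myod1 by 0.59) and 2 lower (both Ncam1). At day 7 limma called 0 higher (0 at an unadjusted p under 0.05) and 1 lower. The list's summed signal was 405 to 754 in brown and 306 to 458 in white cells at day 4, and 327 to 505 and 358 to 555 at day 7. Myf5 was at the floor on all 24 arrays. Myog ran from 94.5 through 238 to 353 in brown cells at day 4, from 30.7 through 62.8 to 106 at day 7, and in white cells from 29.4 to 66.0 and from 24.5 to 92.4.

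Of the 4 heart marker probe sets limma called 0 in any comparison, and 1 was lower in brown cells at day 7 at an unadjusted p under 0.05. The smooth muscle and pericyte list had 6 of 10 probe sets lower in brown cells at day 4, with sums of 3187 to 4047 against 6273 to 10002 in white cells. At day 7 it had 3 higher and 5 lower, with sums of 4064 to 6323 against 7952 to 11445. The endothelial list had 3 of 5 probe sets higher in brown cells on each day, with sums of 226 to 408 against 109 to 278 and 426 to 630 against 77.9 to 240. Of 8 fibroblast probe sets, 7 were lower in brown cells on each day (Col1a1, Col3a1, Dcn and Lum) and 1 higher (Thy1), with sums of 6575 to 9616 against 14208 to 33453 at day 4 and 13388 to 19871 against 31319 to 39011 at day 7. Between the days 7 of them rose in brown and 4 in white cells. Of 8 tested macrophage probe sets, 2 were lower in brown cells on each day (Lyz2 and Csf1r), with sums of 142 to 229 against 172 to 625 and 176 to 311 against 273 to 601, and Itgam was at the floor on all 24 arrays. The part of these cells in the members' values was not tested.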

How the data were processed

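Total RNA of cultured primary adipocytes was measured on Affymetrix arrays, 24 in all. The deposited values are intensities, 1 signal per probe set and array, which the authors computed with MAS5, as the submitters' processing notes name it (no version of it is given in the sources used here). No detection calls were used. Each array was scaled to a common 2% trimmed mean, any value below 8.22, the 20th percentile over all arrays, was raised to it, and log2 was taken. Such a floor understates differences of dim probe sets. A group with all its arrays at the floor adds no spread to the shared one. The standard errors and p-values of Myh3, Tnnc1, Chrna1 and the dim Mylpf probe set can therefore be too small. limma 3.58.1 in R 4.3.3 (lmFit, then eBayes with trend) was fitted to 4 group means over 24 arrays with 20 residual degrees of freedom. Benjamini-Hochberg adjustment ran over 12039 probe sets, leaving out 66 controls and 383 probe sets at the floor on all arrays. Tests are two-sided, and the scripts were tested on simulated data.

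No filter on dim probe sets was used, since members can pass one through the group where they are high. Gene names come from the platform's annotation, which can be old: 10855 probe sets had 1 symbol and 396 several, and the latter name no gene here. Of the member probe sets 16 carry a suffix for probes shared with related transcripts or chosen under relaxed rules. Those values may mix genes of a family.

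Signals are given by array in brown cells, and as the lowest, median and highest (or the number at the floor and the highest) in white cells, for members called with at least 2-fold change in any of the 5 comparisons, or called in both comparisons of brown with white cells. Of the other muscle genes, up to 6 with the largest called change per comparison are named. Eno3 and the uncalled probe sets are given in addition. The members and all lists were chosen with earlier results of these data known. Alternatives changed the floor, filter, normalization, array weights, groups in the fit, arrays, probe sets per gene, the Gapdh ratio as a covariate and runs of array numbers as a block. Upstream sequences are from RefSeq (GRCm38.p6).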

Additional observations from a re-analysis of the deposited data

Results flagged for a closer look

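In 6 of 76 pairs of a named member and a group, 1 array stood apart from the rest of its group. Chance alone does so in about 1 in 20 where no values are tied. In some of the 76 pairs arrays were tied at the floor, so the 6 cannot be set against that rate. In brown cells at day 4, Myh3 was 43.4 on array 05, with the other arrays at 15.8 to 20.3. There Tnnt1 (161361_s_at) was 21.9 on array 19, with the others at 58.6 to 66.9, and Tnnt3 was 19.1 on array 09, with the others at 39.3 to 45. In white cells at day 4, Tnni1 was 16.2 on array 34, with the others at 60.7 to 126. There Myl4 (160487_at) was 63.8 on array 51, with the others at 31.5 to 42.5, and Myh1 was 12.1 on array 42, with the others up to 9.42, mostly under the floor. The change from day 4 to day 7 in Tnnt1 (161361_s_at) differed between brown and white cells by -2.12 on the log2 scale in limma's interaction test (adjusted p = 0.0463), while the gene's other probe set, 101383_at, was at -0.28 (adjusted p = 0.909).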

How the results depend on the processing

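The counts of member probe sets called were 17 and 15 for brown against white cells at day 4 and day 7, 5 between the days in brown cells, 3 between the days in white cells, and 1 for the difference of those changes. At day 4 all alternatives stayed within 1.5 times of 17. At day 7 the Gapdh ratio as a covariate left 3. The brown day count was 3 with a filter on dim probe sets, 8 with the floor at the 40th percentile, 1 with a floor of 1 signal unit, 9 with array weights and 2 with only the brown groups. The white day count was 5 with the filter or quantile normalization, and 1 with the Gapdh ratio or without white day 4 arrays 45 and 51. The difference of the changes had 0 members called with a floor of 1 signal unit, quantile normalization or 1 probe set a gene, and 2 with the Gapdh ratio. Leaving out 1 array at a time gave 16 to 17, 13 to 16, 3 to 7, 1 to 5 and 0 to 1 in the same order. Of 860 alternatives to 41 called values of single members, 91 lost the call and 0 reversed it. Many of the 860 left out 1 array and so share nearly all arrays with the main fit. Settings that dropped a probe set from the test, mostly dim ones, are not counted as lost. The higher floor also ended the Des call at day 7 (-0.92), as did a fit of the day 7 groups alone, and a floor of 1 signal unit ended that of Myh1 (1.48). Over all probe sets the Gapdh ratio left 12 higher and 12 lower between the days in white cells, in place of 618 and 787, and leaving out white arrays 45 and 51 left 358 and 549. Array weights gave 735 and 797 between the days in brown cells, and the block on array numbers 729 and 703, in place of 425 and 453. For the difference of the changes 8 probe sets were higher and 5 lower, in place of which the higher floor gave 24 and 8 and array weights 18 and 9. With runs of array numbers as a block the day counts were 7 in brown cells, Actn3 and Eno3 added, and 2 in white cells, Actn3 added and Sln and Tnnc2 lost, and that block was not used between cell types, which share no run. No paired analysis was possible because no array number is shared between groups, and the labels do not say that neighbouring numbers belong together. Arrays give no counts, so their number limits the precision, and dim members are limited by the floor.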
